A study of Homo sapiens with 60 samples.

Results

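The genes described here are 31 components and targets of the NRF2 pathway, read in A549 cells, an established human lung carcinoma line. They were chosen by name from a list written for this work, with earlier results of these data known. The list holds the factor NRF2 (gene NFE2L2), its inhibitor KEAP1 and 29 genes known as NRF2 targets in lung cells. All 31 were found among the 60675 gene IDs of the table, and all 31 had enough counts to be tested. The lowest count of any of them in any library was 1226, for KEAP1.

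NRF2 is a transcription factor that switches on genes against oxidants and reactive chemicals. In resting cells KEAP1 holds NRF2 and hands it to a CUL3 ubiquitin ligase for destruction. Oxidants and electrophiles, many of them plant compounds, modify KEAP1 so that NRF2 escapes, enters the nucleus, pairs with a small MAF protein and binds antioxidant response elements. A549 cells are known to carry a KEAP1 mutation that leaves NRF2 active without any inducer. Counts per gene cannot show that mutation, and it was not checked here.

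Cells were exposed for 24 h to 1 of 8 herbal extracts at 3 doses, or to DMSO vehicle, and read by RNA-seq in 60 libraries. Every group is the same untransfected line, so no group carries an allele or transgene that another lacks. The vehicle group had 3 libraries. The water extracts of the formulas Sayeok-tang (n = 3 per dose) and Bojungikgi-tang (n = 2 per dose) were given at 500, 100 and 20 µg/mL, named high, medium and low here. Pinellia (Pinelliae Tuber), fresh ginger (Zingiberis Rhizoma Recens) and its dried form (Zingiberis Rhizoma, dried ginger here) were 70% ethanol extracts used at these same doses, 3 libraries each. Scutellaria (Scutellariae Radix), also in 70% ethanol, was used at 190, 38 and 7.6 µg/mL, again with 3 libraries per dose. Coptis (Coptidis Rhizoma, 110, 22 and 4.4 µg/mL) and Zizyphus (Zizyphi Fructus, 500, 100 and 20 µg/mL) had 1 library per dose. Whether replicates came from separate cultures is not given in the sources used here, so the p-values rest only on how far these libraries differ, which may be technical. All comparisons with vehicle share the same 3 vehicle libraries, which carry a set number of their own. Handling and solvent therefore cannot be told apart from treatment in those comparisons, while the change between a high and a low dose takes its levels from treated libraries only, with the vehicle libraries entering its estimate of the spread.

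Library totals ran from 17.51 to 38.54 M counts. Mitochondrial transcripts took 8.29 to 15.9% of counts, with 15 and 15.9% in the low and medium Coptis libraries. The 5 epithelial markers (KRT8, KRT18, KRT19, EPCAM and CDH1) summed to 6241 to 6556 CPM in vehicle (CPM, counts scaled to a common library size by TMM) and to less in nearly all treated libraries. At the high dose that sum was 3533 to 3675 CPM with dried ginger, 3702 with Coptis, 4610 to 4784 with Sayeok-tang, 4852 to 4907 with fresh ginger, 5025 to 5338 with Scutellaria, 5304 to 5324 with Bojungikgi-tang, 5852 to 6106 with Pinellia and 5970 with Zizyphus. At the low and medium doses only fresh ginger medium (5511 to 6370 CPM) and Scutellaria low (5539 to 6316) reached the vehicle range. CDKN2A, which lies in a region deleted in A549 cells, was at 0 in all 60 libraries. The 4 endothelial markers summed to at most 0.256 CPM, the 5 blood markers to at most 2.28, and the 6 fibroblast markers to 19.1 to 38.6 CPM. In such bulk RNA, fewer cells expressing a gene and less of its RNA per cell cannot be told apart. The part of the epithelial and mitochondrial shifts in the results below was not tested.

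Promoter windows from 250 bases before to 50 after each start (RefSeq, GRCh38.p14) were searched on both strands for the antioxidant response element core TGACNNNGC. Windows were at hand for 24 of the 31 genes, and 8 of those (33.3%) held the core, against 13.3% of all 35116 promoter windows. The 8 were GPX2, GCLM, TXNRD1, GSTP1, CBR1, CYP4F11, PGD and ME1, with 2 matches each in TXNRD1 and ME1. NQO1, GCLC and SRXN1 held no core in their windows, and HMOX1 had no window. Sequence outside these windows was not searched. The genes were listed as known NRF2 targets, so the larger share is no test of the element. A match is a run of letters and not a measured binding site. The following stretches, 5′ to 3′ along the gene, lie before the start of 6 genes that the results name. Capitals mark the core, which lies on the opposite strand in GPX2, GCLM, CBR1 and CYP4F11, and the stretch of TXNRD1 holds 1 of its matches.
GPX2, chr14:64942819-64942907, minus strand: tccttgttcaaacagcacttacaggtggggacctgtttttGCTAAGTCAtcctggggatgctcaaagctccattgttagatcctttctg
GCLM, chr1:93909431-93909504, minus strand: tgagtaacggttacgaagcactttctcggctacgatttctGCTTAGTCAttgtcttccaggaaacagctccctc
TXNRD1, chr12:104215640-104215728, plus strand: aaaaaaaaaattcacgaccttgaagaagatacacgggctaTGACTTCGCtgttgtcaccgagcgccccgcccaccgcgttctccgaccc
GSTP1, chr11:67583706-67583794, plus strand: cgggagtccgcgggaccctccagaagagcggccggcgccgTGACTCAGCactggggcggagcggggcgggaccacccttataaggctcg
CBR1, chr21:36069825-36069913, plus strand: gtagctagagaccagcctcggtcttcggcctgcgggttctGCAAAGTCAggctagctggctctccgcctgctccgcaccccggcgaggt
CYP4F11, chr19:15934975-15935063, minus strand: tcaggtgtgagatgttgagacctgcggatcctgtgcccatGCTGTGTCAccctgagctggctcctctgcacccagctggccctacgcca
The 6 genes that share these letters did not move alike. GPX2 had the deepest fall of the 31 genes, CBR1 and GSTP1 fell by less, and GCLM rose with fresh ginger. TXNRD1 differed by 1.13-fold between its highest and lowest mean over the 19 groups with 2 or more libraries. Over all groups the ratio was 1.21, with the single Coptis high library as the highest.

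In vehicle the targets were already abundant. The choice of genes took high levels in A549 cells as known, so these levels and ranks are description only. On a scale corrected for gene length (TPM), AKR1B10, an aldo-keto reductase that reduces aldehydes and retinal, was at 5241 ± 255 TPM (SD, n = 3) and ranked 21st of 27050 genes with a count. The peroxide-removing enzyme PRDX1 was at 2132 ± 97.2 TPM, its electron carrier TXN at 1627 ± 99.5 and the quinone reductase NQO1 at 1575 ± 32.5. PGD, a source of NADPH in the pentose phosphate pathway, was at 1408 ± 10.1 TPM, AKR1C2 at 1150 ± 11.5, the glutathione transferase GSTP1 at 973 ± 35.3 and TXNRD1, which reduces thioredoxin, at 965 ± 42.2. By the spread between libraries, PRDX1 lay above TXN and NQO1, while TXN and NQO1 differed by less than the SD of TXN. GSTP1 and TXNRD1 likewise lay within each other's SD. The order between genes also depends on the length used, the union of all annotated exons of each gene.

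Among all genes ranked by vehicle TPM, 8 of the 31 lay in the first 100 and 26 in the first 1000. The lowest were the factor and its inhibitor themselves, NFE2L2 at 64.1 ± 3.68 and KEAP1 at 65.5 ± 1.71 TPM, together with the fatty acid hydroxylase CYP4F11 at 65.9 ± 5.5. These 3 did not differ beyond their SD. Without the length correction (median CPM of 60 libraries), NFE2L2 (117) lay above CBR1 (110), OSGIN1 (99.3), CYP4F11 (91.8) and KEAP1 (71). The heme-degrading enzyme HMOX1 stood at 220 ± 6.42 TPM, below 4 of the 5 aldo-keto reductases. AKR1C1 lay below it at 121 ± 3.44 TPM, but above it in median CPM (328 against 158).

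**Figure D1:**
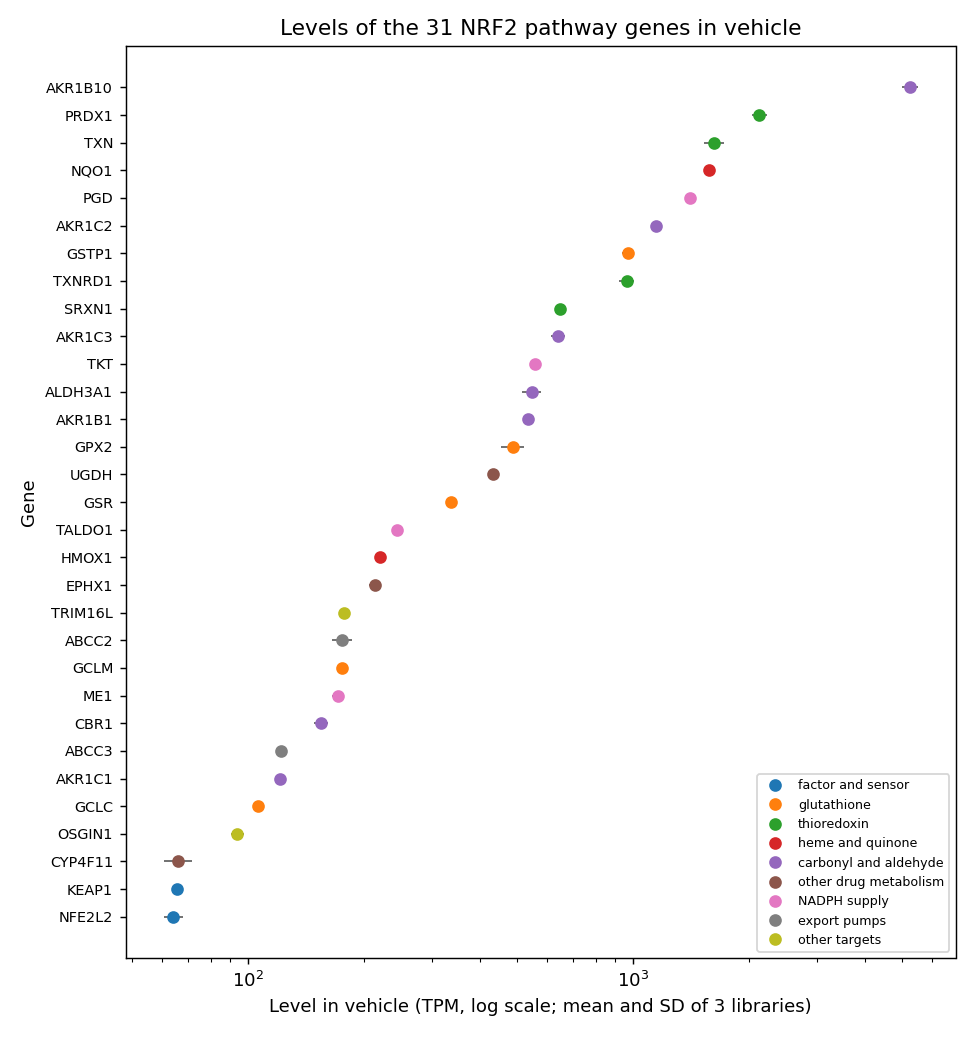
Level of each of the 31 genes in vehicle on a log scale of TPM, coloured by role; points are means and bars SD over 3 libraries. AKR1B10 lies farthest right at 5241 TPM, and NFE2L2 and KEAP1 lie at the low end at 64.1 and 65.5 TPM. The role named NADPH supply also takes in TKT and TALDO1, which do not make NADPH themselves.

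Across the 25 groups most of these genes moved little. For 26 of 31, the highest group mean was under 1.5 times the lowest. The exceptions were GPX2 (2.74-fold), ALDH3A1 (1.77-fold), ABCC3 (1.74-fold), OSGIN1 (1.73-fold) and HMOX1 (1.51-fold). For ALDH3A1 and OSGIN1 the highest value, and for HMOX1 the lowest, was a single Coptis library. Over the 19 groups with 2 or more libraries, 28 of 31 genes were under 1.5-fold, and the ratio was 2.74 for GPX2, 1.70 for ABCC3, 1.62 for OSGIN1, 1.44 for HMOX1 and 1.31 for ALDH3A1. The smallest spread over all groups was in PGD and ME1, both 1.12-fold between groups. The share of all genes, or of equally abundant genes, under 1.5-fold was not counted. These ratios therefore describe the 31 genes and do not set them apart from others. A small change in a well-counted gene can still pass the test, so counts of called genes (adjusted p under 0.05 by edgeR's quasi-likelihood test over all genes) are given with the share of all tested genes called in the same comparison.

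At the high dose against vehicle, Sayeok-tang had 4 of the 31 genes higher and 21 lower, where 18.9% of all genes were called. Scutellaria had 3 higher and 20 lower (40.3% of all genes), dried ginger 5 and 17 (39.2%), fresh ginger 8 and 7 (13.4%), Pinellia 2 and 9 (8.93%) and Bojungikgi-tang 0 and 3 (3.73%). The median log2 change of the 31 was -0.14 with Scutellaria, -0.13 with dried ginger, -0.12 with Sayeok-tang, -0.07 with Pinellia and with Bojungikgi-tang, and 0.02 with fresh ginger. Over all genes the median lay between 0.00 and 0.01 in size. All 31 are well counted, and among genes at least as abundant as the lowest of them the share called was larger, at 65.7% with Scutellaria, 58.1% with dried ginger, 37.2% with Sayeok-tang, 27.2% with fresh ginger, 21.2% with Pinellia and 9.48% with Bojungikgi-tang. Without 1 library the Pinellia count was 5 (vehicle 3 left out), 6 (Pinellia high 1 or 2) or 7 (vehicle 2), in place of 11. The Bojungikgi-tang count was 0 without vehicle 2 or without either of its high dose libraries, and 5 without vehicle 1.

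Between the high and the low dose of the same extract, Scutellaria had 3 genes higher and 17 lower (31% of all genes called) and dried ginger 5 higher and 13 lower (32.8%). Sayeok-tang had 3 higher and 8 lower (7.58%), fresh ginger 4 higher and 1 lower (3.67%) and Bojungikgi-tang 2 higher and 1 lower (0.712%). Among genes at least as abundant as the lowest of the 31, 53.5% were called with Scutellaria, 51.6% with dried ginger, 14.1% with Sayeok-tang, 7.18% with fresh ginger and 1.77% with Bojungikgi-tang. With Pinellia none was called by edgeR, where 0.0663% of all genes were. For Pinellia 6 of the 31 had an unadjusted p under 0.05, and DESeq2 called 1. The Sayeok-tang count was 7 without its high dose library 3, and the Bojungikgi-tang count was 0 without any 1 of its 4 libraries.

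**Figure D2:**
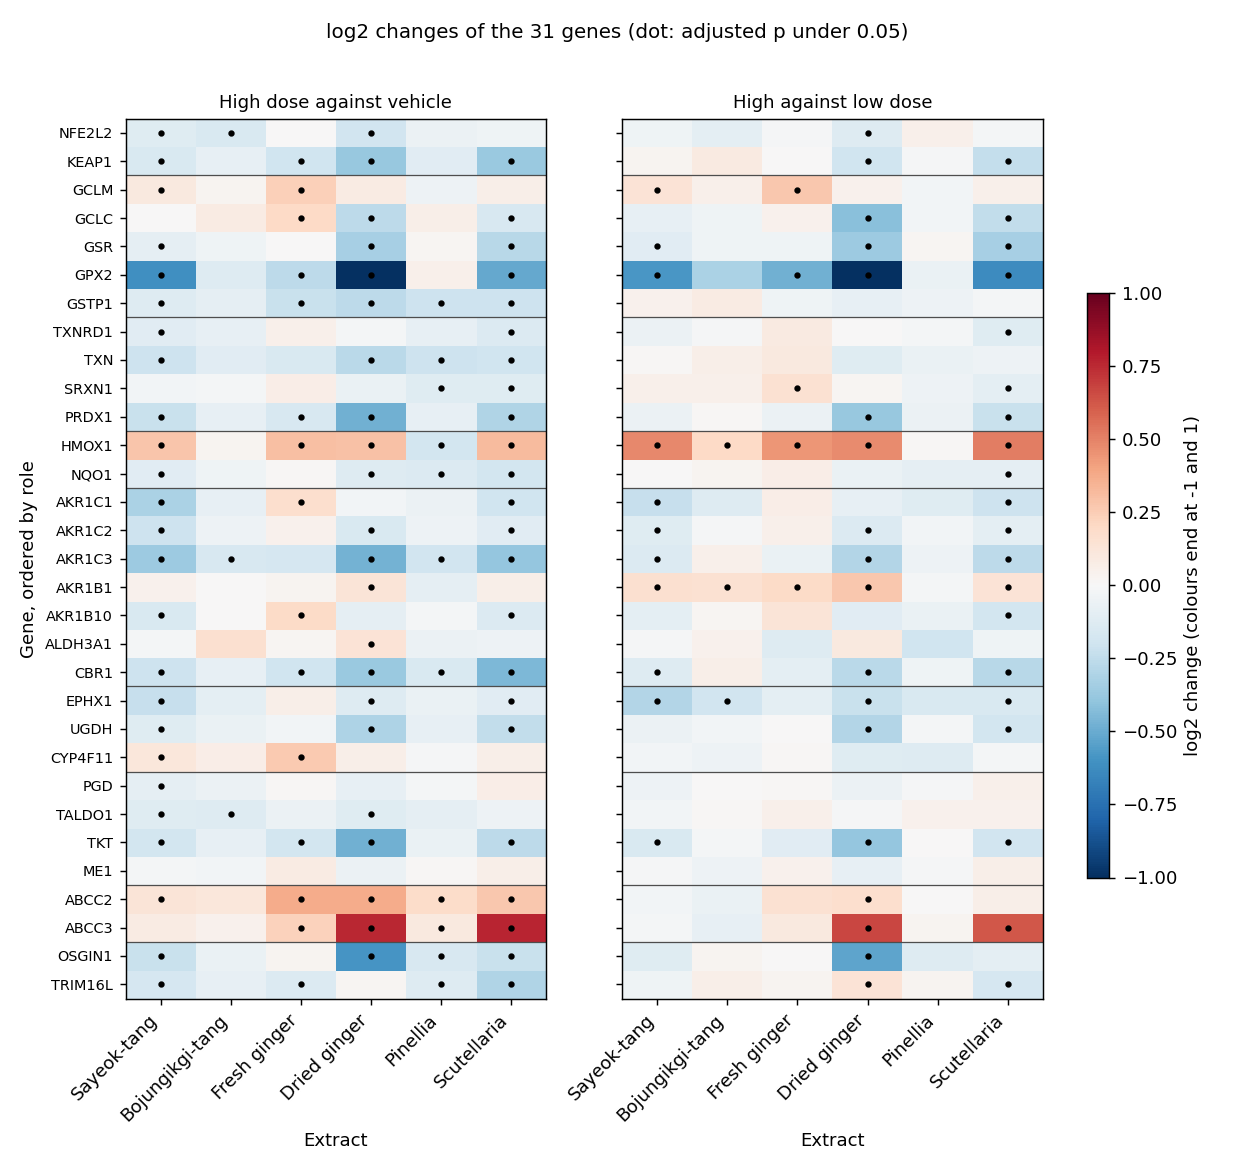
log2 changes of the 31 genes (rows, ordered by role) in 6 extracts (columns), for the high dose against vehicle on the left and against the low dose on the right; dots mark adjusted p under 0.05, and colours end at -1 and 1. The GPX2 row is the darkest blue, reaching -1.23 and -1.25 with dried ginger, and the HMOX1 row is red for 4 of 6 extracts on the left and 5 of 6 on the right.

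NFE2L2 and KEAP1 fell slightly with some extracts, in no case by more than 0.38 on the log2 scale. NFE2L2 mRNA stood at 125, 126 and 118 CPM in vehicle and at 110, 103 and 110 CPM at the high dose of dried ginger. This was a fall of 0.19 ± 0.04 (log2 change ± SE from the fit, adjusted p = 0.00107), and the fall against the low dose was 0.13 ± 0.05. That second call was lost without dried ginger high 2, low 2 or low 3. NFE2L2 was also called below vehicle with Sayeok-tang (-0.12 ± 0.04) and Bojungikgi-tang (-0.15 ± 0.04), calls lost in 3 of 6 and 4 of 5 fits that left out 1 library. KEAP1 was at 78.9, 75.2 and 83 CPM in vehicle, at 62.4, 57.3 and 62.3 with dried ginger and at 65.4, 59.5 and 58 with Scutellaria at the high dose. No library of either extract reached the vehicle range. The log2 change of KEAP1 was -0.38 ± 0.05 with dried ginger (adjusted p = 1.03e-07) and -0.37 ± 0.05 with Scutellaria (adjusted p = 1.95e-08). KEAP1 was also below vehicle at the low dose in all 6 replicated extracts, and called so in 4; of these only the Sayeok-tang call was kept in each fit that left out 1 library. Against their own low dose, only dried ginger (-0.20 ± 0.05) and Scutellaria (-0.24 ± 0.05) had it called lower.

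HMOX1, which splits heme into biliverdin, iron and carbon monoxide, was called higher at the high than at the low dose in 5 of 6 extracts, as was AKR1B1, and no other of the 31 in more than 2. Vehicle libraries held 171, 161 and 179 CPM. At the low dose HMOX1 was at 157, 141 and 146 CPM with Sayeok-tang, 148, 155 and 147 with dried ginger, 159, 150 and 155 with fresh ginger, and 149, 144 and 158 with Scutellaria. At the high dose of the same extracts it was at 210, 204 and 207 CPM, 210, 209 and 204, 204, 207 and 217, and 210, 214 and 214. In all 4 extracts the low dose libraries lay below every vehicle library and the high dose libraries above.

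Against the low dose, HMOX1 rose by 0.51 ± 0.04 with Scutellaria (adjusted p = 2.02e-14), 0.48 ± 0.04 with Sayeok-tang, 0.47 ± 0.04 with dried ginger and 0.44 ± 0.04 with fresh ginger. Bojungikgi-tang libraries went from 150 and 152 to 174 and 174 CPM (0.20 ± 0.04, adjusted p = 0.0144), a call lost without any 1 of those 4 libraries. Pinellia libraries held 145, 151 and 151 CPM at the low and 151, 146 and 154 at the high dose, with a log2 change of 0.01 ± 0.04. Against vehicle the high dose change was +0.28 to +0.32 in the 4 extracts and -0.18 ± 0.04 in Pinellia (adjusted p = 0.00146). At the low dose HMOX1 was below vehicle in all 6 extracts by log2 0.14 to 0.20, and called in 5. The calls with Bojungikgi-tang and dried ginger at that dose were lost without 1 of their low dose libraries (either of Bojungikgi-tang, 1 or 3 of dried ginger), and the latter also without vehicle 3.

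**Figure D3:**
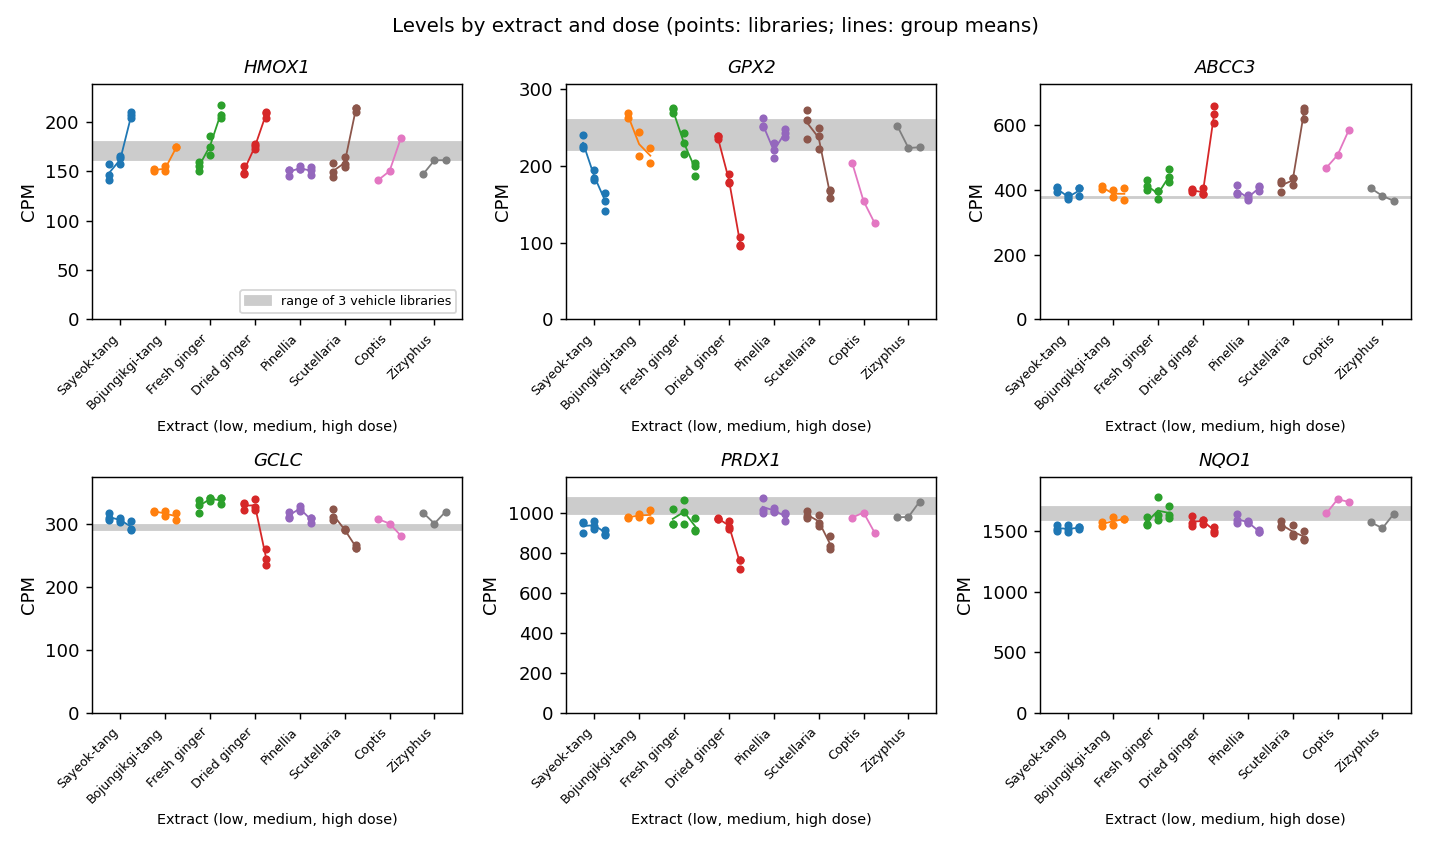
CPM of 6 genes in every library of the 8 extracts, with the low, medium and high dose from left to right within each extract; points are libraries, lines join group means, and the grey band is the range of the 3 vehicle libraries. HMOX1 climbs through the band in 4 extracts to above 200 CPM, GPX2 falls to 95 to 107 CPM with dried ginger, and NQO1 stays between 1427 and 1785 CPM throughout.

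NQO1, which reduces quinones to hydroquinones and is a standard readout of NRF2, did not share this pattern. It was at 1594, 1636 and 1702 CPM in vehicle, and the 57 treated libraries held 1427 to 1785 CPM. With Scutellaria at the high dose it was at 1501, 1435 and 1427 CPM, all below vehicle (-0.18 ± 0.03, adjusted p = 8.42e-06). High dose changes against vehicle were -0.11 ± 0.03 with Sayeok-tang, -0.13 ± 0.04 with dried ginger and -0.14 ± 0.03 with Pinellia, all called lower. The dried ginger call was lost without vehicle 3 or dried ginger high 1 or 2. For fresh ginger the change was 0.01 ± 0.04, with a 95% interval of -0.07 to 0.09. At the low dose NQO1 was already below vehicle in 6 of 6 extracts, and called so in 1, Sayeok-tang. Between the high and the low dose NQO1 was called in 1 extract only, lower with Scutellaria. That call was lost in 3 of 6 fits that left out 1 library.

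The glutathione genes split by subunit and by extract. GCLM, the regulatory subunit of the ligase that makes the glutathione precursor, was at 299, 308 and 309 CPM in vehicle and at 360, 341 and 384 CPM with fresh ginger at the high dose (0.24 ± 0.04, adjusted p = 0.000359). Sayeok-tang had 328, 330 and 327 CPM (0.10 ± 0.03, a call lost without vehicle 1), and against its low dose 0.14 ± 0.03. Dried ginger had 312, 315 and 337 CPM, a change from vehicle of 0.08 ± 0.04 that was not called. GCLC, the catalytic subunit, was at 289, 293 and 298 CPM in vehicle. With dried ginger it fell to 243, 234 and 259 CPM at the high dose, below every vehicle library, from 333, 321 and 331 CPM at the low dose. The change was -0.26 ± 0.04 against vehicle and -0.42 ± 0.04 against the low dose (adjusted p = 4.48e-10). Scutellaria gave 266, 261 and 262 CPM (-0.16 ± 0.03 and -0.25 ± 0.03). Fresh ginger gave 340, 331 and 340 CPM, higher than vehicle by 0.20 ± 0.04.

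GPX2, a glutathione peroxidase of epithelia, fell the most. Its vehicle libraries held 221, 222 and 260 CPM. Dried ginger libraries held 238, 235 and 239 CPM at the low, 177, 179 and 189 at the medium and 96.5, 95 and 107 at the high dose, where no library overlapped those of another dose. The log2 change was -1.23 ± 0.06 against vehicle (adjusted p = 6.38e-16) and -1.25 ± 0.06 against the low dose. Sayeok-tang at the high dose had 165, 154 and 141 CPM (-0.61 ± 0.08, adjusted p = 0.000174), Scutellaria 167, 158 and 168 (-0.51 ± 0.06) and fresh ginger 186, 199 and 203 (-0.26 ± 0.05). Against the low dose the changes in these 3 extracts were -0.58 ± 0.08, -0.63 ± 0.06 and -0.48 ± 0.05. All of these GPX2 calls were kept in each fit that left out 1 library. With Pinellia the libraries stayed at 237, 243 and 248 CPM, and with Bojungikgi-tang at 223 and 203, neither of them called.

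GSR, which returns oxidised glutathione to its reduced form, was at 403, 403 and 412 CPM in vehicle. It was at 320, 315 and 335 CPM with dried ginger (-0.33 ± 0.04, adjusted p = 1.42e-08) and at 333, 337 and 329 CPM with Scutellaria (-0.28 ± 0.03, adjusted p = 3.26e-10) at the high dose. GSTP1 was lower than vehicle at the high dose in 5 of 6 extracts, by 0.13 to 0.26 on the log2 scale. Against the low dose no extract had GSTP1 called, and at the low dose it was already called below vehicle in 4. Of those low dose calls only that with Sayeok-tang was kept in each fit that left out 1 library, and the high dose call with fresh ginger was lost without vehicle 3 or fresh ginger high 3.

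In the thioredoxin arm PRDX1 moved most. It was at 993, 1071 and 1059 CPM in vehicle and at 762, 717 and 764 CPM with dried ginger at the high dose, a fall of 0.48 ± 0.04 (adjusted p = 8.11e-10). Scutellaria gave 883, 818 and 833 CPM (-0.30 ± 0.03) and Sayeok-tang 895, 888 and 913 (-0.22 ± 0.03). Against the low dose, PRDX1 fell with dried ginger (-0.38 ± 0.04) and Scutellaria (-0.22 ± 0.03). TXNRD1 was at 2096, 2102 and 2027 CPM in vehicle and spanned 1845 to 2294 CPM over all 60 libraries. Its largest called change at a high dose was -0.14 ± 0.03 with Scutellaria (1845, 1929 and 1894 CPM). SRXN1, which repairs over-oxidised peroxiredoxins, was at 558, 566 and 557 CPM in vehicle. Fresh ginger took it from 527, 535 and 521 CPM at the low to 589, 575 and 598 at the high dose (0.15 ± 0.04, adjusted p = 0.0167), a call lost without its high or low library 1 or 3. Of 100-base windows of SRXN1 transcripts, 84.5% also occur in the overlapping AL121758.1, which had 0 to 15 counts per library against 9854 to 21477 for SRXN1. TXN was lower than vehicle at the high dose in 4 extracts (0.20 to 0.27 on the log2 scale), and called in none against the low dose. The TXN calls were lost in 5 of 6 fits that left out 1 library with dried ginger and with Pinellia, in 4 of 6 with Scutellaria and in none with Sayeok-tang.

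The 7 genes for carbonyl and aldehyde reduction had 0 higher and 5 lower with Sayeok-tang and with Scutellaria at the high dose against vehicle, 2 and 3 with dried ginger, 2 and 1 with fresh ginger, 0 and 2 with Pinellia and 0 and 1 with Bojungikgi-tang. For groups of these genes too, the shares called among equally abundant genes, such as 65.7% with Scutellaria and 37.2% with Sayeok-tang, are the background. AKR1B10 was at 2846, 2778 and 3181 CPM in vehicle. It was at 3267, 3265 and 3483 CPM with fresh ginger at the high dose, above every vehicle library (0.19 ± 0.05, adjusted p = 0.00587; lost without vehicle 2 or fresh ginger high 3). It was at 2630, 2650 and 2694 CPM with Scutellaria, below every vehicle library (-0.14 ± 0.04; lost without vehicle 3). AKR1C3, which makes steroids and prostaglandins by reduction, was at 885, 948 and 964 CPM in vehicle and fell to 664, 668 and 692 with dried ginger (-0.47 ± 0.08), 766, 642 and 728 with Scutellaria (-0.39 ± 0.05) and 761, 684 and 745 with Sayeok-tang (-0.36 ± 0.04). At the low dose AKR1C3 was already below vehicle in 6 of 6 extracts, and called in 2, Sayeok-tang among them. Against the low dose it was called lower in the same 3 extracts. The Sayeok-tang call of these was lost in 4 of 6 fits that left out 1 library, the other 2 in none. AKR1C1 fell with Sayeok-tang from 327, 334 and 358 CPM in vehicle to 282, 275 and 261 (-0.32 ± 0.03, adjusted p = 3.83e-09). AKR1C1 shares 16.1% of its 100-base windows with AKR1C2, which had 43902 to 87840 counts per library against 6204 to 13764, so its value is uncertain where reads were split between these neighbours.

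AKR1B1, the aldose reductase of the polyol pathway, stood below vehicle at the low dose in 6 of 6 extracts (called in 3) and above vehicle at the high dose by a call in 1, dried ginger (0.13 ± 0.04). The low dose calls were each lost without at least 1 library. AKR1B1 was called higher at the high than at the low dose in 5 of 6 extracts, by 0.27 ± 0.04 with dried ginger, 0.19 ± 0.04 with fresh ginger, 0.16 ± 0.03 with Sayeok-tang, 0.15 ± 0.04 with Bojungikgi-tang and 0.14 ± 0.03 with Scutellaria. The Bojungikgi-tang call was lost without any 1 of its 4 libraries. With dried ginger AKR1B1 went from 548, 574 and 583 CPM to 692, 682 and 688, against 614, 619 and 647 in vehicle. CBR1, a carbonyl reductase that acts on quinones and some drugs, was at 115, 121 and 129 CPM in vehicle, at 90.3, 85.2 and 91.6 with Scutellaria (-0.45 ± 0.04, adjusted p = 6.19e-10) and at 98, 93 and 91.9 with dried ginger (-0.37 ± 0.05). ALDH3A1, an aldehyde dehydrogenase also driven by the aryl hydrocarbon receptor (AhR), was at 666, 643 and 752 CPM in vehicle and 753, 738 and 775 with dried ginger. These ranges overlapped, and the call (0.14 ± 0.04, adjusted p = 0.0151) was lost without vehicle 1 or 2 or dried ginger high 3.

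Of the other drug-metabolising genes, the epoxide hydrolase EPHX1 was lower at the high than at the low dose in 4 extracts. With Sayeok-tang it went from 180, 180 and 177 to 149, 155 and 137 CPM (-0.29 ± 0.04, adjusted p = 1.55e-06). In Bojungikgi-tang its call (-0.19 ± 0.05) was lost without any 1 of 4 libraries. UGDH, which makes UDP-glucuronate for conjugation, fell with dried ginger (-0.31 ± 0.03 against vehicle) and Scutellaria (-0.25 ± 0.03). CYP4F11 was higher than vehicle at the high dose with fresh ginger (0.26 ± 0.05) and with Sayeok-tang (0.11 ± 0.04), the latter lost without vehicle 3 or any 1 of the 3 Sayeok-tang libraries and with DESeq2. At the low dose CYP4F11 was already called above vehicle in 3 extracts, these 2 and dried ginger. Of those low dose calls only that with fresh ginger was kept in each fit that left out 1 library. No extract had CYP4F11 called between the high and the low dose.

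Among PGD, TALDO1, TKT and ME1, TKT alone was called between the high and the low dose. This transketolase of the pentose phosphate pathway was at 1726, 1641 and 1715 CPM in vehicle and at 1221, 1238 and 1199 with dried ginger at the high dose (-0.48 ± 0.04, adjusted p = 1.12e-11). Scutellaria gave 1418, 1418 and 1397 CPM (-0.26 ± 0.03). Both extracts, and Sayeok-tang (-0.15 ± 0.03), also had TKT lower than at their low dose. PGD, TALDO1 and the malic enzyme ME1 had no call between high and low dose in any of the 6 extracts. ME1 had none against vehicle at the high dose either, with changes of -0.06 to 0.08.

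Both export pumps were higher than vehicle at the high dose in 4 of 6 extracts. ABCC3, which exports glucuronides and bile acids, was at 375, 377 and 378 CPM in vehicle. At the high dose it reached 635, 659 and 607 CPM with dried ginger and 618, 651 and 644 with Scutellaria, from 401, 394 and 400 and from 394, 428 and 420 at the low dose. The medium doses of both extracts, at 386 to 406 and 414 to 437 CPM, lay near the low ones. The log2 change was 0.75 ± 0.04 with dried ginger (adjusted p = 1.21e-14) and 0.76 ± 0.03 with Scutellaria (adjusted p = 6.33e-21) against vehicle, and 0.67 ± 0.04 and 0.62 ± 0.03 against the low dose. Fresh ginger had 439, 463 and 424 CPM (0.23 ± 0.04). The Pinellia call (0.10 ± 0.03) was lost in each fit that left out 1 library. ABCC2, which exports glutathione and glucuronide conjugates, was at 461, 438 and 425 CPM in vehicle. It was called above vehicle in 6 of 6 extracts at the low dose (0.16 to 0.22) and in 5 of 6 at the high dose, up to 570, 561 and 582 CPM with dried ginger (0.37 ± 0.05). Only with dried ginger was it called higher at the high than at the low dose (0.17 ± 0.05). At the low dose the ABCC2 call was lost with dried ginger without vehicle 2 or 3 or dried ginger low 1 or 3, and with fresh ginger without vehicle 3 or fresh ginger low 2.

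Of the other targets, OSGIN1, a growth regulator induced by oxidative stress, was at 108, 99.1 and 105 CPM in vehicle and 70.6, 70.8 and 66.2 with dried ginger at the high dose (-0.59 ± 0.06, adjusted p = 1.2e-07). The medium dose libraries of dried ginger were at 115, 108 and 98.2 CPM, above or near those of vehicle. OSGIN1 was called below vehicle at the high dose in 4 of 6 extracts. The Sayeok-tang and Scutellaria calls were kept in each fit that left out 1 library, with log2 changes of -0.26 to -0.19. The Pinellia call was lost in 4 of 6 such fits. Against the low dose OSGIN1 was called lower with dried ginger only. TRIM16L was below vehicle at the low dose in all 6 extracts and called in 5, of which only the Pinellia call was kept without vehicle 3. Of its 100-base windows, 29.8% are shared with TRIM16, so reads of these genes could be split either way.

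Low and medium doses were compared with vehicle to see what those comparisons hold besides the high dose change. Summed over 6 extracts, the 31 genes had 51 calls at the low dose (19 higher, 32 lower), where 6.63% of all tests were called, and 53 at the medium dose (11 higher, 42 lower; 5.95%). Per extract, 8.73 to 22.2% of genes at least as abundant as the lowest of the 31 were called at the low dose. At the medium dose this share was 2.37 to 24.5%. Without vehicle 3 the low dose sum was 32, with 19 higher and 13 lower, so that the majority direction turned. The medium dose sum was then 26, with 8 higher and 18 lower. At the low dose ABCC2 was called higher in 6 of 6 extracts, TRIM16L and HMOX1 lower in 5, and KEAP1 and GSTP1 lower in 4. All of these comparisons share the vehicle libraries.

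Dried and fresh ginger come from the rhizome of 1 plant species and were given at equal doses, so their responses were compared directly. At 500 µg/mL dried ginger had 2 of the 31 genes higher and 20 lower than fresh ginger (22.5% of all genes called). Of genes at least as abundant as the lowest of the 31, 39.4% were called. GPX2 was lower by 0.98 ± 0.06 (96.5, 95 and 107 against 186, 199 and 203 CPM, adjusted p = 4.2e-13). OSGIN1 was lower by 0.63 ± 0.07 (70.6, 70.8 and 66.2 against 105, 111 and 103 CPM), GCLC by 0.46 ± 0.04, GSR by 0.33 ± 0.04, PRDX1 by 0.32 ± 0.04 and AKR1B10 by 0.28 ± 0.05. ABCC3 was higher by 0.52 ± 0.04 (635, 659 and 607 against 439, 463 and 424 CPM, adjusted p = 1.17e-10), and TRIM16L by 0.16 ± 0.04. HMOX1 did not separate them: the difference was -0.01 ± 0.04, with a 95% interval of -0.09 to 0.07.

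The change from low to high dose differed between the gingers for 13 of the 31 genes (11.2% of all genes called). It was more positive with dried ginger for 2 of them and more negative for 11. Of genes at least as abundant as the lowest of the 31, 22.9% were called. The difference was -0.77 ± 0.08 for GPX2 (adjusted p = 6.25e-08), -0.53 ± 0.09 for OSGIN1, -0.46 ± 0.05 for GCLC, -0.32 ± 0.05 for GSR and 0.57 ± 0.06 for ABCC3 (adjusted p = 6.23e-08). For GCLC, fresh ginger changed by 0.04 ± 0.04 between doses where dried ginger changed by -0.42 ± 0.04. For HMOX1 the difference was 0.03 ± 0.06, with a 95% interval of -0.09 to 0.15. Epithelial marker sums also differed between the gingers at this dose, at 3533 to 3675 against 4852 to 4907 CPM.

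**Figure D4:**
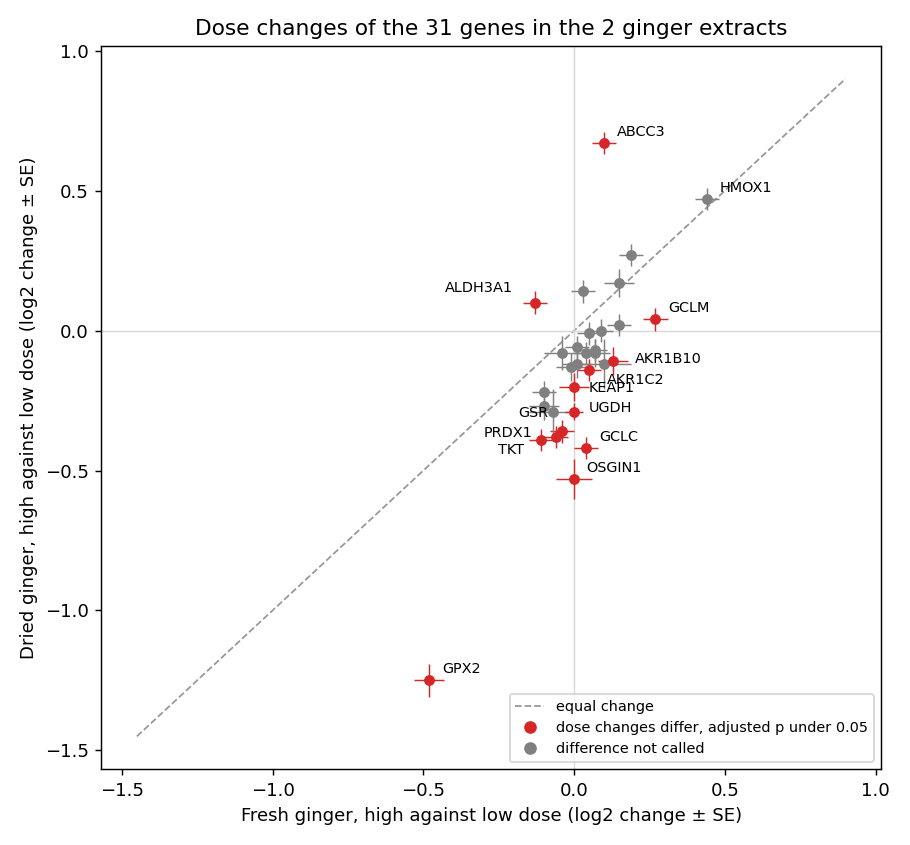
log2 change from low to high dose (± SE) of the 31 genes with fresh ginger (horizontal) and dried ginger (vertical); red points are the 13 genes whose dose changes differed at an adjusted p under 0.05, and the dashed line marks equal change. HMOX1 lies near the line at 0.44 and 0.47, ABCC3 lies above it, and GPX2, OSGIN1 and GCLC lie below.

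At 500 µg/mL, Sayeok-tang had 1 gene higher and 5 lower than Bojungikgi-tang (2.05% of all genes called). HMOX1 was higher by 0.25 ± 0.04 (210, 204 and 207 against 174 and 174 CPM, adjusted p = 0.000108). GPX2 was lower by 0.48 ± 0.09 (165, 154 and 141 against 223 and 203 CPM), a call lost without Bojungikgi-tang high 2, and AKR1C1 was lower by 0.24 ± 0.04. The calls of AKR1C2 (-0.15 ± 0.03), AKR1C3 (-0.19 ± 0.04) and PRDX1 (-0.14 ± 0.03) were each lost without at least 1 library, Bojungikgi-tang high 3 in all of them. The dose change differed for HMOX1 alone (0.28 ± 0.06, adjusted p = 0.0141; 0.275% of all genes called). For that difference the share among equally abundant genes was 0.883%. The HMOX1 call was lost without Sayeok-tang high 1, low 2 or low 3 or any 1 of the 4 Bojungikgi-tang libraries.

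Coptis and Zizyphus had 1 library per dose, so their values have no replicate check and no test. None of the 31 passed the size rule (at least 2-fold from the vehicle mean and outside the vehicle range) with either extract at the high dose, where 1.66% of all genes did with Coptis and 0.0915% with Zizyphus. With Coptis, GPX2 was at 203, 154 and 125 CPM from the low to the high dose, against 221 to 260 in vehicle, and its log2 ratio to vehicle at the high dose was -0.90. ABCC3 was at 468, 507 and 584 CPM (ratio 0.63 at the high dose). ALDH3A1 was at 917, 974 and 1044 CPM (ratio 0.60), above each of the other 57 libraries, which reached 816. SRXN1 was at 589, 621 and 634 CPM and TXNRD1 at 2034, 2147 and 2294. The low and medium Coptis libraries are those with 15 and 15.9% mitochondrial counts. With Zizyphus the log2 ratios of the 31 ran from -0.12 (TRIM16L) to 0.12 (GCLC) at the high dose, from -0.23 (TXN) to 0.12 (ABCC2) at the medium and from -0.29 (TXN) to 0.26 (CYP4F11) at the low dose. At the high dose of Zizyphus 9 of the 31 lay below the vehicle range and 4 above. At its medium dose 19 lay below and 4 above, and at its low dose 19 below and 6 above. With Coptis 14 lay below and 11 above at the high dose, 13 and 13 at the medium, and 13 and 8 at the low dose. The share of all genes outside that range is not given here. A single library can fall outside so narrow a range by chance, so these counts are description only.

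Other genes of the pathway were read from 2 further lists. Of 12 regulators of NRF2, 7 were higher and 3 lower with Scutellaria at the high dose against vehicle, and 6 higher and 3 lower with dried ginger, where 40.3% and 39.2% of all genes were called. SQSTM1 (p62), which binds KEAP1 and carries it to autophagy and is itself an NRF2 target, went from 797, 807 and 868 CPM in vehicle to 1472, 1408 and 1353 with dried ginger (0.78 ± 0.04, adjusted p = 2.01e-15). It rose by 0.30 ± 0.03 with Scutellaria, 0.23 ± 0.04 with fresh ginger and 0.15 ± 0.03 with Sayeok-tang. NFE2L1, a relative of NRF2 that restores proteasome genes, rose by 0.44 ± 0.04 with dried ginger and 0.39 ± 0.04 with Scutellaria. RBX1, the RING subunit of the CUL3 ligase, fell by 0.50 ± 0.06 and 0.53 ± 0.08 in the same comparisons. MAFK, a small MAF partner of NRF2, fell by 0.60 ± 0.04 with Sayeok-tang (adjusted p = 2.33e-15).

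Of 28 other NRF2 targets, 27 were tested; ADH7 had too few counts. At the high dose against vehicle, 4 were higher and 12 lower with Scutellaria, 7 and 5 with dried ginger, 5 and 10 with Sayeok-tang, 7 and 2 with fresh ginger, 1 and 2 with Pinellia and 1 and 3 with Bojungikgi-tang. The shares of all genes called in these comparisons were 40.3, 39.2, 18.9, 13.4, 8.93 and 3.73%, in the same order, and 65.7, 58.1, 37.2, 27.2, 21.2 and 9.48% of genes as abundant as the 31. SLC7A11, the cystine importer that feeds glutathione synthesis and is also an ATF4 target, rose by 0.47 ± 0.04 with Scutellaria and 0.37 ± 0.04 with dried ginger. IDH1, a cytosolic source of NADPH, rose by 0.46 ± 0.03 and 0.34 ± 0.04. GPX3, a secreted glutathione peroxidase, fell by 0.91 ± 0.07 with dried ginger (adjusted p = 1.14e-11), 0.56 ± 0.07 with Scutellaria and 0.49 ± 0.06 with Sayeok-tang.

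Because NQO1, ALDH3A1 and HMOX1 also answer to other factors, 10 targets of AhR or of ATF4, the factor of the amino acid and stress response, were read beside them. All 10 were higher with dried ginger at the high dose against vehicle, 9 with fresh ginger, 8 with Sayeok-tang and with Scutellaria, 4 with Bojungikgi-tang and 0 with Pinellia. Of all genes, 39.2% were called in either direction with dried ginger, 13.4% with fresh ginger, 18.9% with Sayeok-tang, 40.3% with Scutellaria, 3.73% with Bojungikgi-tang and 8.93% with Pinellia. The shares called higher were 20.2% with dried ginger and with Scutellaria, 6.21% with fresh ginger and 9.39% with Sayeok-tang. They were 1.39% with Bojungikgi-tang and 3.85% with Pinellia. The AhR target CYP1A1 rose by 2.63 with dried ginger, 1.79 with Sayeok-tang, 1.57 with fresh ginger and 0.97 with Bojungikgi-tang on the log2 scale, and had a change of 0.10 with Scutellaria. Its Coptis libraries were at 3.37 CPM at the low and 9.07 at the high dose, against 0.781 to 1.04 in vehicle. The ATF4 target TRIB3 rose by 1.97 with Scutellaria, 1.54 with dried ginger, 0.64 with fresh ginger and 0.43 with Sayeok-tang, with -0.00 in Pinellia. The part of these programmes in the changes of HMOX1, ALDH3A1 and SLC7A11 was not tested.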

How the data were processed

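RNA-seq was read in 60 libraries of A549 cells in 25 groups, 17.51 to 38.54 M counts each. The deposited values are expected counts per gene, not normalised. Per the submitters' processing notes, FastQC 0.11.9, Trim Galore 0.6.5, STAR 2.7.3a and RSEM 1.3.3 were used on hg38. The annotation release is not given in the sources used here. Of the 269 value columns, 209 were not used. Expected counts were rounded to whole numbers.

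Each of 3 fits held both extracts of a label set and the 3 vehicle libraries. Low genes were removed (filterByExpr, minimum count 10), libraries scaled by TMM, and genes tested with edgeR 4.0.16 (quasi-likelihood F-test, robust, 1 mean per group, R 4.3.3), adjusted by Benjamini-Hochberg over all genes of a comparison. CPM levels used 1 TMM scale over 60 libraries. TPM used GENCODE 29 exon lengths, the union of all annotated exons of each gene. The size rule for single libraries was a log2 ratio of at least 1 in size after adding 0.5 CPM, at a mean of at least 5 CPM. The script was tested on simulated data.

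The members and lists were chosen with earlier results of these data known. Per-library values are given for HMOX1, NQO1, GCLM, TXNRD1, SRXN1, AKR1B10 and ALDH3A1 and, per high dose comparison, mainly for up to 4 members with the largest called change in each direction; others named beside them were chosen after their values were seen. List genes were named by lowest p, up to 3 per direction. Sample labels and series text give different DMSO concentrations for vehicle.

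Other settings tried were size factors by relative log expression, DESeq2 1.42.0, a fit of all 60 libraries at once, every gene with a count, a block for replicate number, and leaving out each library in turn, and for single libraries 2 CPM added, CPM without TMM and a vehicle library left out.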

Additional observations from a re-analysis of the deposited data

Results flagged for a closer look

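These results have a test of the difference between 2 extracts under the same contrast, the change from low to high dose, that passed an adjusted p of 0.05 by edgeR. Between dried and fresh ginger, the dose change was more negative with dried ginger for GPX2 (-0.77), OSGIN1 (-0.53), GCLC (-0.46), PRDX1 (-0.32), GSR (-0.32), UGDH (-0.29), TKT (-0.28), AKR1B10 (-0.25), GCLM (-0.23), AKR1C2 (-0.20) and KEAP1 (-0.20), and more positive for ABCC3 (0.57) and ALDH3A1 (0.23), on the log2 scale. The KEAP1 call was lost in 11 of the 12 fits that left out 1 library, AKR1C2 in 8 of 12 and GCLM in 3 of 12. Between Sayeok-tang and Bojungikgi-tang, the dose change of HMOX1 was larger by 0.28 with Sayeok-tang, a call lost in 7 of 10 such fits.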

How the results depend on the processing

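Of 198 calls of the 31 genes in the comparisons that use the high dose, 2 were lost with DESeq2, 17 in 1 fit of all 60 libraries, 9 without the filter on low counts and 0 with relative log expression size factors, and none changed sign. Leaving out 1 library lost the call in 182 of 1255 such tests. With 1 fit of all 60 libraries the number of genes called was 1, higher, for Bojungikgi-tang at the high dose against vehicle (3 lower in the main analysis, none of them kept), 7 for Pinellia (11) and 8 for fresh ginger high against low dose (5). For Pinellia high against low dose (0) it was 1 in that fit, 1 with DESeq2 and 2 with no filter. For Coptis the fit, which assumes that a lone library varies like the replicated groups, called 17 genes at the high dose where the size rule took 0. Leaving out 1 library gave 0 to 5 genes for Bojungikgi-tang at the high dose against vehicle, 5 to 11 for Pinellia, 7 to 10 for Sayeok-tang high against low dose (11), 0 to 0 for Bojungikgi-tang high against low dose (3) and 0 to 1 for the difference in dose change between the formulas (1). It gave 26 to 56 calls for the medium dose sum (53) and 32 to 54 for the low dose sum (51). A Bojungikgi-tang arm then holds 1 library, assumed to vary like the others. For Sayeok-tang against Bojungikgi-tang at the high dose (6) the count was 9 with no filter and 4 without either Bojungikgi-tang library, a move of 1.5 times. No other count moved by that much or more, except the block count of Bojungikgi-tang (2) named next and its count without vehicle 3 (2); the causes were not tested. With the replicate number as a block, 25 of the 31 genes were called with Sayeok-tang and 24 with Scutellaria at the high dose against vehicle (25 and 23 without) and 2 with Bojungikgi-tang (3), 1 of the 198 calls was lost, and no count moved by over 1.5 times. The numbers share only a name: deviations of same-numbered libraries had median correlations of -0.00342, 0.0359 and 0.00643 in the 3 label sets. No value of these genes rests on fewer than 1226 counts.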
